A study of Mus musculus with 27 samples.

Results

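Hepatocyte DNA methylation was compared between C57BL/6J mice (3 samples) and WSB/EiJ mice (3 samples), which are 6 of the 27 samples of a survey of 9 inbred strains with 3 samples each. The samples were chosen by their strain labels, and the comparison was chosen with earlier results of these data known. All 27 came from livers of female mice aged 12 weeks, were labelled as biological replicates of hepatocytes, and carried no treatment or engineered allele. The survey set out to relate genetic variation to epigenetic marks and gene expression, and only its methylation files were analysed here. C57BL/6J is the common laboratory strain from which the mouse reference genome was made, and WSB/EiJ was derived from wild mice of largely the same subspecies.

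In mammals, methylation sits mainly on the cytosine of CpG dinucleotides. Gene starts that are rich in CpGs are usually unmethylated, while gene bodies and the DNA between genes are mostly methylated, and methylation can follow the DNA sequence nearby, so inbred strains can differ in a heritable way. Reduced representation bisulfite sequencing reads this mark next to cut sites of the enzyme MspI (CCGG) and therefore samples CpG-rich DNA. The deposited files give the percent of methylated reads at each listed position without the number of reads. Depth is therefore unknown, and values carry no counting interval.

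The sequences before 5 gene starts are shown first, as examples of differences at gene starts. Among protein-coding genes in RefSeq's promoter table whose start region (250 bases before to 50 after the start) was read at 3 or more positions in a differing tile, these 5 differed by 45 percentage points or more. They were chosen after their values were seen. Each is the 250 bases before the transcription start, 5′ to 3′ on the gene's strand, in RefSeq's GRCm38.p6 assembly. Capitals mark the CpGs that all 6 files list.
Gal, chr19:3414545-3414794, minus strand: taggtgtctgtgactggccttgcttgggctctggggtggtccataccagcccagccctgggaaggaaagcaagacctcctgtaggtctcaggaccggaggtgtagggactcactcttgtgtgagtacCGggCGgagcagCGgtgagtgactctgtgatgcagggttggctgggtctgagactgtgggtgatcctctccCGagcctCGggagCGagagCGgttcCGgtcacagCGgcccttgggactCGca
Akr1b8, chr6:34353896-34354145, plus strand: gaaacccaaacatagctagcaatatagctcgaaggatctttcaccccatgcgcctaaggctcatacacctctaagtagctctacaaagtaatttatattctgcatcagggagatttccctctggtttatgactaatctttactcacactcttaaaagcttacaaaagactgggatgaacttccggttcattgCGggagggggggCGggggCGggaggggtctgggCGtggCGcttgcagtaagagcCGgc
Rnf26, chr9:44113052-44113301, minus strand: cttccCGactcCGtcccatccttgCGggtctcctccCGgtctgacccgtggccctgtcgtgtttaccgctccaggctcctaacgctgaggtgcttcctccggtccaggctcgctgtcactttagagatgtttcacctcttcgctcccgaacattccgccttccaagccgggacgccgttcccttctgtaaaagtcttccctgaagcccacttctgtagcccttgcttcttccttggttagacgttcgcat
B3galt4, chr17:33951489-33951738, minus strand: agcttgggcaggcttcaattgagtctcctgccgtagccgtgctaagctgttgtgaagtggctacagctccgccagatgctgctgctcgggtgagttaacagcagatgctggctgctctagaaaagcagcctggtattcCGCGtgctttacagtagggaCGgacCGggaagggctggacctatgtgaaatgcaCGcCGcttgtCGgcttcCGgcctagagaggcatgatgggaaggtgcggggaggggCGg
Lxn, chr3:67463908-67464157, minus strand: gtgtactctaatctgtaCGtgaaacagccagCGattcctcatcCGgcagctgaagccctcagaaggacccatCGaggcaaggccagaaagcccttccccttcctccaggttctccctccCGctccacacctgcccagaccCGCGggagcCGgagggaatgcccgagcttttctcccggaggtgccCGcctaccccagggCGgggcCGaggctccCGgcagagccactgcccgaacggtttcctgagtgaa
The stretch before Gal holds 11 CpGs, of which 10 were read, and that before Rnf26 holds 18, of which 4 were read. The corresponding numbers are 6 of 9 for Akr1b8, 9 of 14 for B3galt4 and 12 of 16 for Lxn. Each stretch holds the MspI site CCGG, which reads the same on both strands, between 2 and 4 times. Of the 32619 promoters in the table, 47.3% hold it in these 250 bases.

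Gal, which encodes the precursor of the neuropeptide galanin, was methylated at its start in WSB/EiJ and little methylated in C57BL/6J. Over the 29 positions between 250 bases before and 50 bases after the start, the 3 C57BL/6J samples read 12.4%, 16% and 13.2%, and the WSB/EiJ samples 81.1%, 78.5% and 75.1%. The 1 kb tile around the start (chr19:3414001-3415000, 47 positions) went from 12.7% ± 1.17 to 77.3% ± 3.01 (SD, n = 3 each). All 3 WSB/EiJ samples lay above all 3 C57BL/6J samples at 45 of those 47 positions. Of all positions tested singly, 9.80% had no overlap in either direction. Such counts, here and at the other gene starts shown, follow in part from choosing these genes by their difference. In the other 7 strains the tile read from 10.4% in NZO/HlLtJ to 18.4% in DBA/2J, so WSB/EiJ lay far above all 8 other strains.

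Akr1b8 encodes an aldo-keto reductase. Its start region was read at 6 positions, all within 57 bases before the start. C57BL/6J samples read 11.1%, 13.1% and 19.05% and WSB/EiJ samples 69.7%, 83.1% and 68.3%, with no overlap at any of the 6 positions. CAST/EiJ, at 47.7%, lay between them, and the other 6 strains read 4.95% to 16.2%.

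Rnf26 encodes a ubiquitin ligase of the endoplasmic reticulum. A block of 22 positions between 333 and 213 bases before its start was unmethylated in C57BL/6J, at 0.511%, 0.585% and 0%, and partly methylated in WSB/EiJ, at 34.4%, 40.9% and 37.4%. The strains did not overlap at 20 of the 22 positions. Every other strain read under 2.4% there, the highest being CAST/EiJ at 2.33%.

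B3galt4, a galactosyltransferase of ganglioside synthesis, had opposite differences at its start and in the gene next to it. Between 273 bases before and 545 bases after the start, C57BL/6J averaged 60.3% ± 3.54 and WSB/EiJ 12.1% ± 1.10 over 63 positions (SD, n = 3 each), and at 53 of them every C57BL/6J sample was the higher. From 2731 to 3192 bases after the start, beyond the end of B3galt4 and inside the neighbouring gene Wdr46, which encodes a nucleolar WD repeat protein, C57BL/6J averaged 23.2% ± 7.83 and WSB/EiJ 85.0% ± 1.67 over 22 positions, and at 21 of them every WSB/EiJ sample was the higher. The 7 positions between these blocks read 89.6% and 87.6%. At the block in Wdr46 6 of the other 7 strains lay at 80.9% or higher, beside WSB/EiJ, and 129S1/SvImJ read 46.1%. At the start they were spread from 12.7% in NOD/ShiLtJ to 53.5% in A/J.

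Lxn encodes latexin, an inhibitor of carboxypeptidases. From 233 to 35 bases before its start, 22 positions read 55.0%, 48.8% and 52.9% in C57BL/6J and 3.96%, 6.13% and 8.27% in WSB/EiJ. All C57BL/6J samples were above all WSB/EiJ samples at 16 of them. The tile that holds most of these positions also lies within the span of Gfm1, which encodes a mitochondrial elongation factor, and its call was lost without any 1 of WSB/EiJ replicates 2, 3 and 4 (highest adjusted p = 0.0721).

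**Figure D1:**
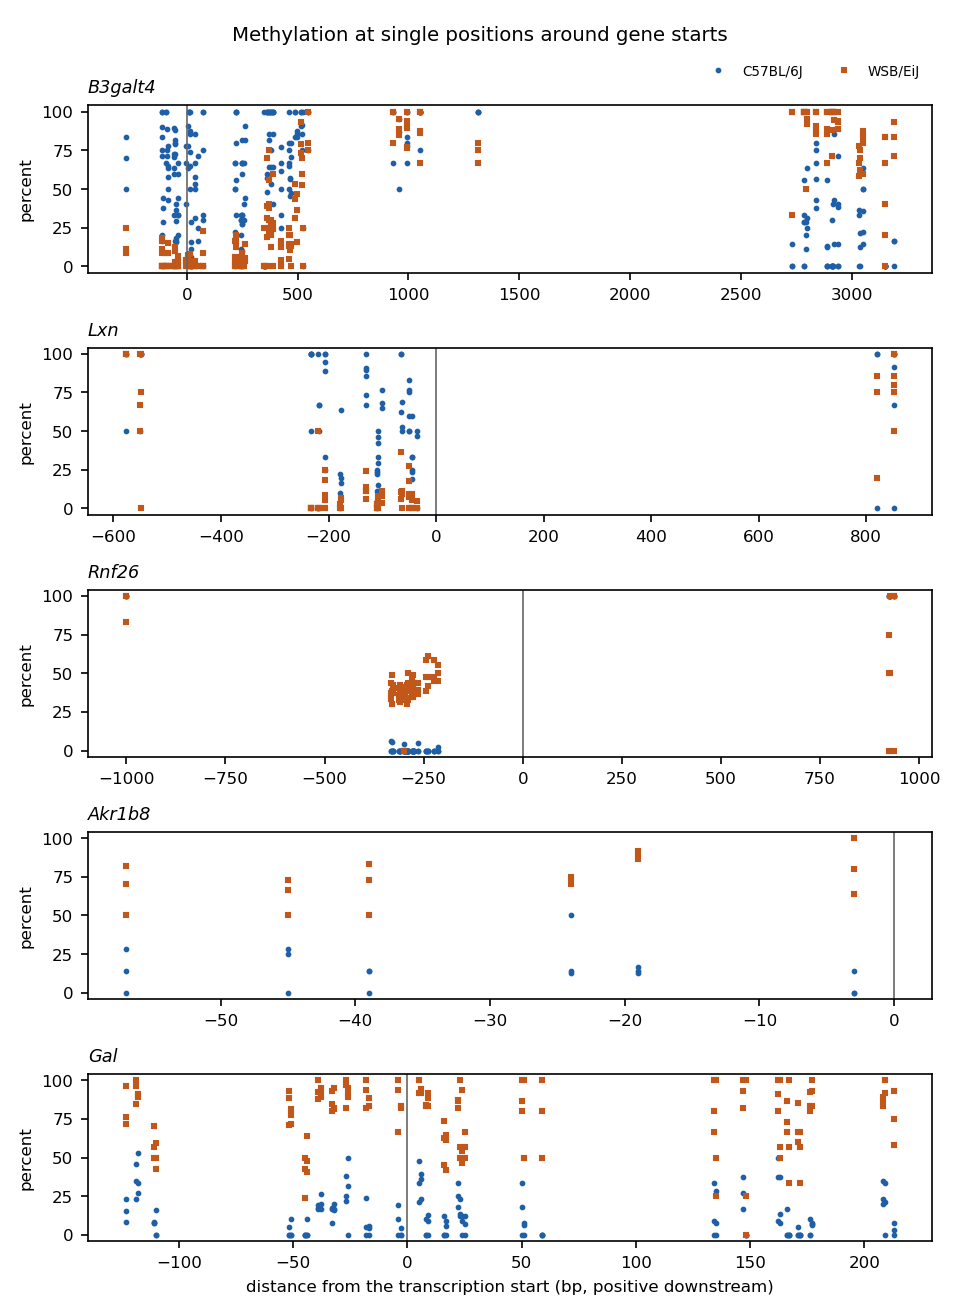
Methylation level (percent) of single positions in each of the 6 samples against the distance from the transcription start (bp, positive downstream) for B3galt4, Lxn, Rnf26, Akr1b8 and Gal; blue dots are C57BL/6J and orange squares WSB/EiJ. WSB/EiJ was higher before Rnf26, Akr1b8 and Gal and lower before Lxn, and at B3galt4 it was lower around the start and higher about 3 kb downstream, inside Wdr46.

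Across the genome the comparison used the 2317825 positions that all 6 files list, which are 58.3% of the 3973730 listed in any of them. Positions on chromosomes 1 to 19 and X were averaged in 1 kb tiles with 5 or more of them, and 80476 tiles with a mean no closer than 2.5 points to 0% or 100% were tested. A tile is called differing where limma's moderated test, two-sided on a log ratio of methylated to unmethylated percent, gave a Benjamini-Hochberg adjusted p under 0.05 and the strain means lay 25 percentage points or more apart. This held for 483 tiles (0.6% of those tested). The level was higher in WSB/EiJ at 266 (0.331%) and higher in C57BL/6J at 217 (0.27%). The share higher in WSB/EiJ was thus 55.1%. The median difference was 36.9 points, 95 tiles differed by 50 points or more, and 17 by 75 or more. At all 483 tiles the samples of the strains did not overlap, which was true of 16.8% of all tested tiles. An unadjusted p under 0.05 was reached by 8976 tiles (11.2%).

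**Figure D2:**
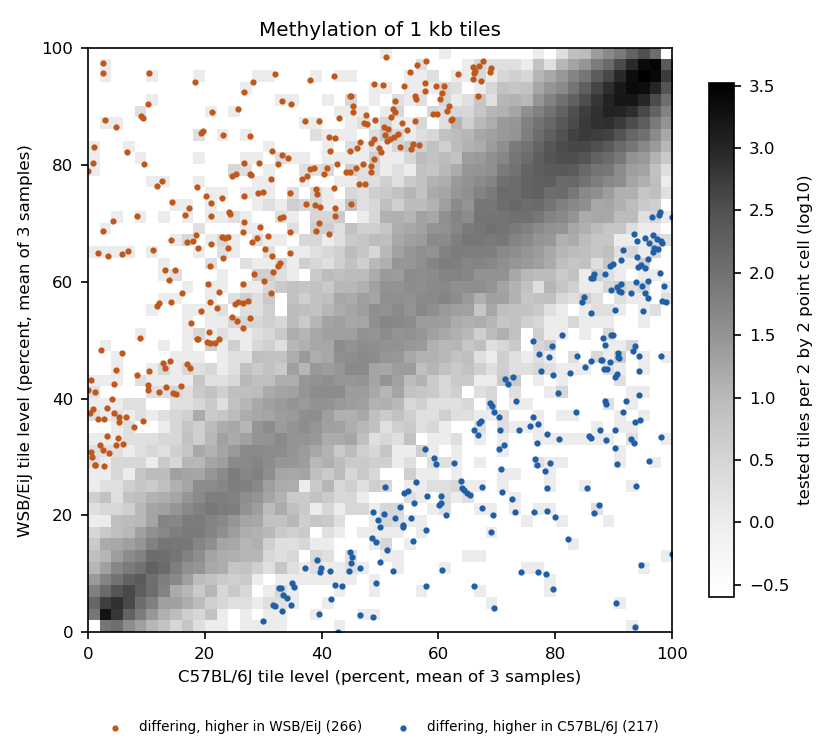
WSB/EiJ against C57BL/6J methylation level (percent, mean of 3 samples) of the 80476 tested 1 kb tiles, shaded by the number of tiles per cell on a log10 scale, with the differing tiles as points. Most tiles lie on the diagonal, 266 orange points lie above it and 217 blue points below it.

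Fewer tiles passed without any 1 sample. These fits have 3 residual degrees of freedom, where the main fit has 4. Power is therefore lower whichever sample is left out. The parts of lower power and of single samples in lost calls were not told apart. Without C57BL/6J replicate 1, 2 or 4 there were 285, 238 or 273, and without WSB/EiJ replicate 2, 3 or 4 there were 148, 128 or 177, with 108 tiles called in all 6 of these fits. The share higher in WSB/EiJ stayed between 52.0% and 57.8% in them.

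The average level did not separate the strains. Autosomal positions averaged 36.7% ± 0.131 in C57BL/6J and 36.7% ± 0.144 in WSB/EiJ (SD, n = 3 each; exact permutation test, two-sided, p = 0.7, where 0.1 is the smallest p that 3 against 3 allows). On the X chromosome they averaged 55.4% ± 0.161 and 55.0% ± 0.383 (exact permutation p = 0.2). The share of autosomal positions at an intermediate level, 20% to 80%, was 12.2% ± 0.227 and 11.9% ± 0.307 (exact permutation p = 0.2). With limits of 30% and 70% it was 6.80% against 6.41%, and on X 21.6% against 20.4%, with no overlap between the strains in either (exact permutation p = 0.1 for both). C57BL/6J samples listed 2916034, 3072877 and 3029124 positions and WSB/EiJ samples 3156965, 3086908 and 3029130. Correlations between tile levels across the tested tiles were 0.959 to 0.966 within C57BL/6J, 0.974 to 0.976 within WSB/EiJ and 0.9502 to 0.960 between strains. The median SD of a tested tile was 3.45 points in C57BL/6J and 2.77 in WSB/EiJ.

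Levels at the starts of cell type marker genes were read as well. Of 27 hepatocyte marker genes, 10 were read at 3 or more positions within 500 bp of the start, among them the transcription factors Cebpa, Foxa1, Foxa2 and Hnf4a, and all 10 lay under 20% in both strains. Of 13 endothelial markers 5 were read. Kdr and Egfl7 lay under 3% in both strains, Tie1 and Eng read 92.0% and 74.8% in C57BL/6J and 91.9% and 74.5% in WSB/EiJ, and Tek, at 3 positions, read 66.7% in every C57BL/6J sample and 33.3%, 50% and 52.4% in WSB/EiJ. None of 18 blood and Kupffer cell markers was read. Of 13 stellate and bile duct markers 7 were read. Des, Lrat, Col1a2 and Krt7 lay under 20% in both strains. Col3a1 and Spp1 read 77.8% and 73.4% in C57BL/6J and 86.9% and 72.2% in WSB/EiJ. Epcam read 54.9% in C57BL/6J and 24.2% in WSB/EiJ. Over all 7 the sample means were 33.9% to 36.5% in C57BL/6J and 29.0% to 32.8% in WSB/EiJ. Epcam, a surface protein of bile duct cells, differed most of the 7 and was left out after the values were seen. The other 6 then gave sample means of 29.5% to 33.8% in C57BL/6J and 30.02% to 33.8% in WSB/EiJ. These overlap, which follows in part from that choice. Of 38 tested tiles over the genes of that list 2 differed (5.26%, beside 0.6% of all tiles), both lower in WSB/EiJ, at Epcam and at Pdgfrb, a receptor of stellate cells. Low starts were seen at markers of other cell types too (Kdr, Egfl7, Lrat and Col1a2), so low starts at hepatocyte markers cannot identify the cells. A part of cell makeup in the tile differences was not tested.

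Most differences were partial. Tiles were classed by strain mean as low (under 20%), intermediate (20% to 80%) or high (over 80%). Of the 483 differing tiles, 146 were intermediate in both strains, 97 went from high in C57BL/6J to intermediate in WSB/EiJ, 91 from intermediate to high, 77 from low to intermediate and 51 from intermediate to low. A full switch was seen at 21 tiles, 15 from low in C57BL/6J to high in WSB/EiJ and 6 from high to low. These 21 were among only 22 such switches in all tested tiles.

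The largest differences in each direction lay partly outside genes. The tile chr17:80019001-80020000 (21 positions), 9487 bp from Hnrnpll, read 2.57% ± 0.8005 in C57BL/6J and 97.4% ± 0.808 in WSB/EiJ. The tile chr13:62812001-62813000 (23 positions), in the pseudogene Gm7049, read 2.496% ± 2.195 and 95.8% ± 1.91, and in the 5 other strains with data it read 3.52% to 8.51%. In the other direction, chr7:63802001-63803000 (5 positions) fell from 93.6% ± 5.42 to 0.889% ± 1.54, and A/J, at 88.1%, was the one other strain on the C57BL/6J side. The tile chr2:121444001-121445000 (5 positions), 1400 bp from Ell3, read 100% in every C57BL/6J sample and 25%, 15% and 0% in WSB/EiJ. Each of these 4 calls held without any 1 sample.

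Pairs of levels are given below as C57BL/6J first and WSB/EiJ second. Among tiles over protein-coding genes, the largest difference with the higher level in WSB/EiJ was inside Ldlrad3, a membrane protein with LDL receptor class A repeats. At chr2:102113001-102114000 the C57BL/6J samples read 14.6%, 5.09% and 11.8% and the WSB/EiJ samples 95.3%, 93.9% and 98.0% (6 positions; adjusted p = 0.00163). The strains were far apart, and 5 of the other 7 strains lay on the WSB/EiJ side. Inside Lasp1, an actin-binding scaffold, chr11:97823001-97824000 read 0%, 5.45% and 3.08% against 88.6%, 81.7% and 92.7%, and the tile before it rose from 34.7% to 90.3%. That second Lasp1 call was lost without WSB/EiJ replicate 2 or 4 (adjusted p up to 0.0638).

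Over or within 1 kb of both Smtnl1, a smoothelin-like muscle protein, and Ube2l6, the conjugating enzyme for the ubiquitin-like protein ISG15, 2 adjoining tiles differed. At chr2:84811001-84812000 the C57BL/6J samples read 0%, 0% and 2.5% and the WSB/EiJ samples 81.9%, 78.8% and 80.3%. The tile before it went from 6.62% ± 1.51 to 82.2% ± 4.52. All other 7 strains read under 7% in the first of these and 11.4% to 17.3% in the second, so WSB/EiJ stood alone in both.

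Further tiles higher in WSB/EiJ lay over Pstpip2, an F-BAR adaptor (18.4% to 94.1%), Pi4k2a, a phosphatidylinositol kinase (4.28% to 70.4%), and Frmd4a, a FERM domain scaffold (28.3% to 94.2%). The same direction held at Dnaaf1, an assembly factor of ciliary dynein (26.7% to 92.4%), at Hspg2, which encodes the basement membrane protein perlecan (25.7% to 89.6%), and at Tpcn1, an endolysosomal cation channel (32.0% to 95.5%). At Pi4k2a C57BL/6J was the exception: the 6 other strains with data read 74.7% to 87.2%. At Dnaaf1 CAST/EiJ (88.2%) and PWK/PhJ (85.7%) resembled WSB/EiJ. Over Hspg2 the 9 strains fell into a lower set of 25.5% to 29.9% (C57BL/6J, 129S1/SvImJ, NOD/ShiLtJ and NZO/HlLtJ) and a higher set of 86.5% to 91.1%. The start of the predicted gene Gm51464 went from 1.77% ± 0.715 to 64.9% ± 6.94. The Frmd4a call rests on C57BL/6J samples at 7.14%, 38.6% and 39.3% and was lost without any 1 sample except C57BL/6J replicate 1 (adjusted p up to 0.128).

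The largest difference with the lower level in WSB/EiJ over a gene was inside Ptprk, a receptor tyrosine phosphatase. At chr10:28524001-28525000 (12 positions) C57BL/6J samples read 87.9%, 92.8% and 90.5% and WSB/EiJ samples 6.60%, 2.87% and 5.74% (adjusted p = 0.000530). DBA/2J (4.65%) and PWK/PhJ (7.25%) were low as well, and the other 5 strains read 89.8% to 92.5%. Inside Slc25a13, which encodes citrin, the mitochondrial aspartate and glutamate carrier used by the urea cycle, chr6:6199001-6200000 (5 positions) read 92.4%, 95.1% and 96.7% against 11.9%, 12.4% and 10.3% (adjusted p = 0.000457). There the 5 other strains with data read 92.2% to 95.9%, and WSB/EiJ alone was low.

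Other genes with a tile lower in WSB/EiJ were Xxylt1, a xylosyltransferase that acts on Notch (79.7% to 7.36%), Skap1, a T cell adaptor (78.4% to 9.95%), and Hlcs, which attaches biotin to carboxylases (96.1% to 29.3%). Samd4, a translational repressor (86.6% to 20.5%), Zc3h12d, a ribonuclease (69.6% to 4.21% over 53 positions), and Crocc, which encodes the ciliary rootlet protein rootletin (74.2% to 10.2% over 55 positions), went the same way. So did Cda, cytidine deaminase (90.6% to 28.8%), Pebp1, an inhibitor of RAF kinase (93.4% to 32.4%), and Trhde, which degrades thyrotropin-releasing hormone (80.03% to 19.7%). At Samd4 all 7 other strains lay on the WSB/EiJ side, from 8.501% in DBA/2J to 52.1% in PWK/PhJ. At Hlcs none did, with levels from 83.4% to 96.7%. Without 1 sample the call was lost at Skap1 and Cda (WSB/EiJ replicate 2 or 3; adjusted p up to 0.0732 and 0.0616), Pebp1 (any WSB/EiJ replicate; up to 0.0775) and Trhde (C57BL/6J replicate 2, WSB/EiJ replicate 2 or 3; up to 0.0733).

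**Figure D3:**
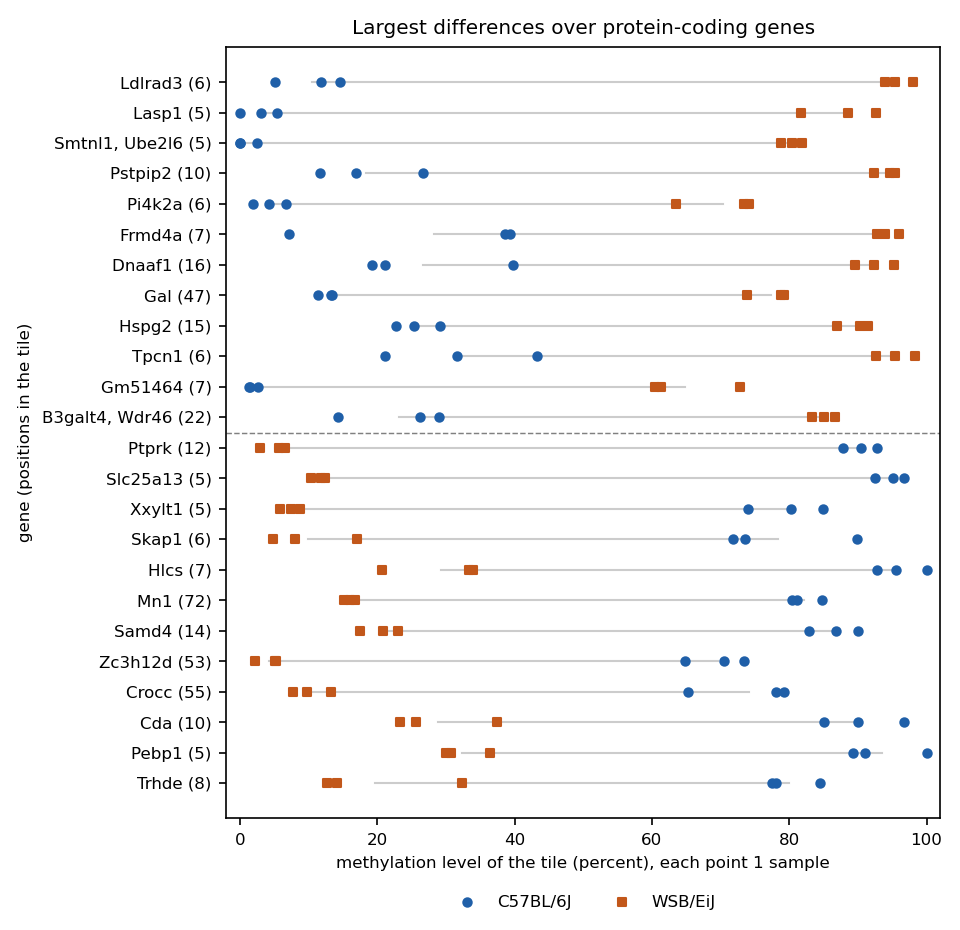
Methylation level (percent) of the tile with the largest difference at each of 24 protein-coding loci, 12 higher in WSB/EiJ above the dashed line and 12 higher in C57BL/6J below it; each blue dot or orange square is 1 sample, and the number of positions in the tile is in parentheses. Tiles were chosen among those without overlap between the samples of the strains, so that none overlap here.

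Mn1, a transcriptional coregulator, held one of the 2 longest runs of differing tiles (neighbours within 10 kb), with all 3 of its tested tiles differing. In order along chr5:111418001-111421000 the tiles read 34.0% ± 3.32, 82.1% ± 2.34 and 86.1% ± 1.67 in C57BL/6J and 5.83% ± 0.548, 15.97% ± 0.802 and 33.3% ± 1.14 in WSB/EiJ, over 114, 72 and 96 positions. In the middle tile the C57BL/6J samples read 81.2%, 80.3% and 84.8% and the WSB/EiJ samples 16.7%, 16.02% and 15.1%. NOD/ShiLtJ (45.4%) and A/J (53.4%) lay lowest of the other strains there, and the other 5 read 65.8% to 87.1%. The call of the first of the 3 tiles was lost without WSB/EiJ replicate 3 (adjusted p = 0.0521). The other run, 3 differing of 4 tested tiles in chr4:43422001-43427000 over Rusc2 and Fam166b, was lower in WSB/EiJ in each of the 3, at 33.6%, 34.6% and 25.8% against 85.8%, 90.3% and 56.2%. Of its calls, that at Fam166b was lost without any 1 sample (adjusted p 0.0777 to 0.129) and the others without WSB/EiJ replicate 3 or 2 (0.0511 and 0.0530). Of 455 runs 26 held more than 1 tile, and 24 of these went in 1 direction.

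By place relative to genes, 0.504% of tiles inside protein-coding genes differed, 0.746% of those holding the end of such a gene and 0.711% of those more than 1 kb away from any. Tiles holding the transcription start of a protein-coding gene differed in 18 of 2699 cases (0.667%), 12 higher in WSB/EiJ and 6 higher in C57BL/6J. The annotation used gives gene spans and starts, so exons, introns and untranslated regions were not analysed here. In all, 255 of 13541 genes with a tested tile had a differing one.

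Besides Gal, Akr1b8, Rnf26 and B3galt4, start tiles differed at several genes of known role. Ndufc2, a subunit of respiratory complex I, read 0.481%, 1.74% and 2.95% in C57BL/6J and 38.5%, 32.4% and 38.7% in WSB/EiJ. CAST/EiJ, at 2.16%, was low like C57BL/6J, and the other 6 strains read 34.0% to 47.7%. Tlr12, a sensor of microbial profilin, went from 2.80% ± 3.07 to 36.6% ± 1.44, and Zfp995, a zinc finger gene, from 0.571% ± 0.443 to 30.8% ± 1.65. Pafah2, which hydrolyses platelet-activating factor, rose from 56.2% to 91.2% over its tile, while the start regions of its 2 annotated starts differed by only 14.8 and 16.3 points. Klhl33, a kelch-like gene, fell from 66.1% ± 8.08 to 7.87% ± 4.29, while 6 of the other strains read 3.95% to 9.98% and CAST/EiJ 45.4%. Hcar1, the lactate receptor, fell from 53.9% to 17.98%, Fbxo40, a muscle F-box protein, from 50.004% to 17.98%, and Mamstr, a coactivator of MEF2 factors, from 69.4% to 37.7%. The calls at Tlr12 and Pafah2 were lost without C57BL/6J replicate 2 or any WSB/EiJ replicate (adjusted p up to 0.0713 and 0.0982). Those at Hcar1 and Fbxo40 were lost without any 1 sample except C57BL/6J replicate 2 and 1, respectively (up to 0.173 and 0.111), and that at Mamstr without any 1 sample (0.0690 to 0.131). Zfp995, Gm51464, the vomeronasal receptor gene Vmn2r29 (26.6% to 68.6%) and the X-linked claudin gene Cldn34c1 (14.1% to 56.4%) belong to families with close copies, where reads can align to more than 1 place. The other named genes and pseudogenes were not screened for such copies. At Vmn2r29 the start region itself read 34.2% and 40.4% (21 positions), so that the difference lay in the rest of the tile. Its call was lost without any 1 sample except C57BL/6J replicate 1 (up to 0.0796).

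Genes of liver metabolism differed at few tiles. Of 109 tiles over cytochrome P450 genes 2 differed (1.83%), beside 0.6% of all tiles. Cyp7a1, the rate-limiting enzyme of bile acid synthesis, read 36.4%, 42.5% and 37.7% in C57BL/6J and 71.0%, 72.2% and 76.1% in WSB/EiJ at chr4:6272001-6273000. Cyp3a44, a drug-metabolising enzyme with close copies in its family, went from 94.8% ± 2.51 to 59.3% ± 2.26. Of 135 tiles over genes of glucose metabolism and insulin signalling 1 differed, in Insr, the insulin receptor (45.03% ± 6.08 to 73.3% ± 2.36). The Cyp7a1 and Insr calls were lost without any 1 sample (adjusted p 0.0505 to 0.0855 and 0.0915 to 0.194) and that at Cyp3a44 without WSB/EiJ replicate 2 (0.0503).

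Transporter genes differed in 2 of 284 tiles (0.704%, beside 0.6% of all tiles) and in both directions. The bile salt and drug exporter Abcc4 fell from 90.8% ± 1.58 to 47.1% ± 5.94, and its relative Abcc3 rose from 44.8% ± 5.81 to 82.3% ± 5.61. Of 174 tiles over Wnt and zonation genes 2 (1.15%) were lower in WSB/EiJ, at the Wnt antagonist Dkk3 (44.6% to 10.5%) and at Hal, histidine ammonia lyase, which is enriched in periportal hepatocytes (44.2%, 46.9% and 44.1% against 12.2%, 11.6% and 11.8%). Serpinf2, which encodes an inhibitor of plasmin made by the liver, was the 1 of 22 serpin and urinary protein tiles that differed (4.55% of that list, 49.7% to 19.2% in level). Leaving out any 1 sample ended the calls at Abcc3 (adjusted p 0.0769 to 0.0986), Dkk3 (0.0662 to 0.179) and Serpinf2 (0.0713 to 0.134), and leaving out WSB/EiJ replicate 3 that at Hal (0.0511).

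No tile was called by limma over hepatocyte marker genes (0 of 56, with 7 at an unadjusted p under 0.05), drug conjugation genes (0 of 43, with 6) or nuclear receptors (0 of 284, with 36). The same was true of imprinted genes (0 of 182, with 15), DNA methylation enzymes and readers (0 of 71, with 2) and circadian clock genes (0 of 79, with 9). Blood and Kupffer cell markers had 0 of 26, with 1 at an unadjusted p under 0.05, and endothelial markers 0 of 62, with 6. Beside 0.6% over all tiles, lists of this size can hold none.

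Zinc finger genes, taken by the symbols Zfp and Zscan, held 8 differing tiles of 733 (1.09%, beside 0.6% of all tiles), 6 higher in WSB/EiJ and 2 lower. Zfp710 went from 14.2% ± 5.49 to 67.1% ± 8.21, Zfp704 from 50.5% ± 1.70 to 93.7% ± 1.59, Zfp444 from 49.0% to 93.9% and Zfp473 from 30.3% to 65.6%. At Zfp710 all other 7 strains lay with WSB/EiJ, at 42.5% to 77.7%. Both lower tiles were in Zfp64 (91.3% to 63.7% and 89.4% to 62.6%). Calls were lost without any 1 sample at Zfp444 (adjusted p 0.0746 to 0.0982) and Zfp64 (up to 0.113), without any 1 sample except C57BL/6J replicate 1 at Zfp473 (up to 0.0860), and without C57BL/6J replicate 2 or WSB/EiJ replicate 2 or 3 at Zfp710 (up to 0.0721).

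Developmental homeobox and related genes differed at 3 of 627 tiles (0.478%, beside 0.6% of all tiles), all lower in WSB/EiJ. These were Pax7, a factor of muscle stem cells (70.3% to 36.9%), Nkx2-2, of neural and islet development (32.1% to 4.40%), and Nkx2-6, of the embryonic heart and pharynx (39.3% to 12.4%). The Pax7 and Nkx2-6 calls were lost without any 1 sample (adjusted p up to 0.105 and 0.0916) and that at Nkx2-2 without any 1 except C57BL/6J replicate 4 (up to 0.0723). Of 18 tiles over major histocompatibility genes 1 (5.56%) differed, in H2-Q1, a class I gene (1.79%, 0% and 4.17% against 29.7%, 37.9% and 28.5%). Innate immune genes differed at 2 of 191 tiles (1.05%), that of Tlr12 and one in Nlrp4e, of the inflammasome receptor family, at 90.5%, 89.9% and 90.3% against 44.97%, 45.6% and 40.4%. Of 81 tiles over the protocadherin clusters 1 (1.23%), shared by Pcdha1 to Pcdha7, differed and went from 87.9% ± 3.10 to 46.5% ± 6.22. H2-Q1 was lost without WSB/EiJ replicate 2 or 3 (adjusted p up to 0.0603) and the Pcdha tile without any 1 WSB/EiJ replicate (up to 0.0606).

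Of the 2 differing tiles among the 38 over stellate and bile duct markers (5.26%, beside 0.6% of all tiles), that at the Epcam start read 59.95%, 52.6% and 52.1% in C57BL/6J and 27.2%, 22.4% and 23.1% in WSB/EiJ. All other 7 strains lay at 43.3% or higher, on the C57BL/6J side. The Pdgfrb tile read 41.3%, 36.6% and 46.3% against 9.86%, 12.0% and 9.45%, and 5 other strains lay on the WSB/EiJ side. The Epcam call was lost without any 1 sample (adjusted p 0.0706 to 0.132) and the Pdgfrb call without any 1 WSB/EiJ replicate (up to 0.0766).

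The levels of the other 7 strains, which the test did not use, show how often a difference was shared. A strain is said to lie on the side of the strain whose mean is nearer. Of the 286 differing tiles with data in all 7, WSB/EiJ stood alone at 32 (11.2%) and C57BL/6J stood alone at 15 (5.24%). At the other 239 at least 1 strain lay on each side. Of the 32 at which WSB/EiJ stood alone, 22 were lower in WSB/EiJ and 10 higher. The lower ones included Hlcs, Epcam, Nkx2-6 and Fsip1 (48.8% to 2.56%). The higher ones included Gal, Rnf26 and both tiles at Smtnl1 and Ube2l6. Samd4, Zfp710, Vmn2r29 and Rassf4 (23.5% to 67.4%) were among those at which C57BL/6J stood alone. Fsip1 and Rassf4 were chosen after their values were seen. The call at Rassf4 was lost without any 1 sample (adjusted p 0.0561 to 0.111).

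CAST/EiJ lay on the WSB/EiJ side at 55.3% of the tiles it could be read in, and PWK/PhJ at 50.8%. A/J did so at 44.8%, NOD/ShiLtJ at 42.0%, DBA/2J at 41.3%, 129S1/SvImJ at 40.2% and NZO/HlLtJ at 36.5%. The wild-derived strains CAST/EiJ and PWK/PhJ thus had the highest shares, a difference that was not tested, and they were also read in the fewest of them, 378 and 372.

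**Figure D4:**
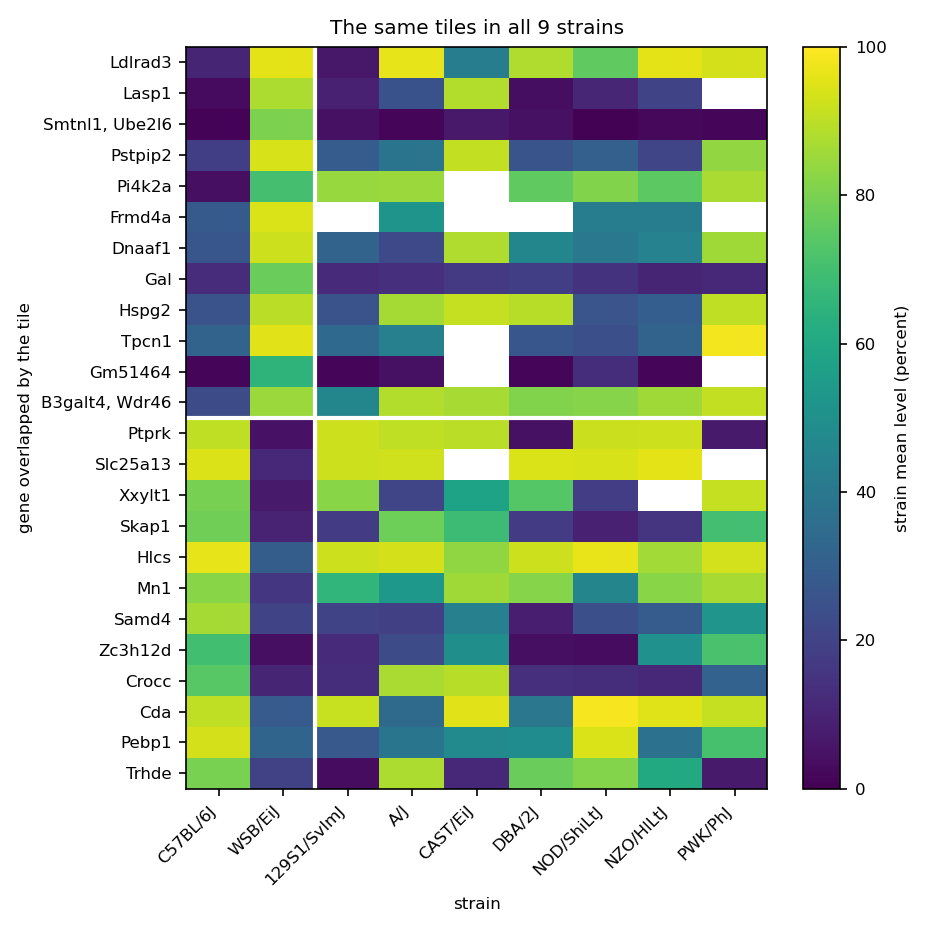
Mean level (percent, colour scale from 0 to 100) in all 9 strains of the 24 tiles over protein-coding loci with the largest differences; rows are genes, columns strains, and white cells were not read in that strain. Of the strains read, WSB/EiJ is far above all others at Gal and at the tile of Smtnl1 and Ube2l6. It is far below all others at Slc25a13 and Hlcs, and C57BL/6J is far below all others at Pi4k2a.

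**Figure D5:**
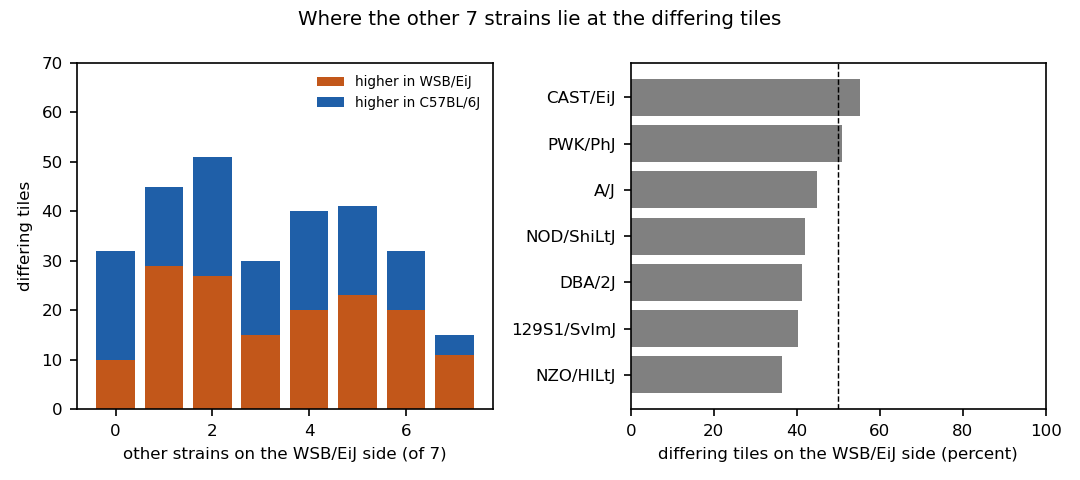
Left, number of differing tiles by how many of the other 7 strains lie on the WSB/EiJ side, split by direction (286 tiles with data in all 7); right, percent of differing tiles at which each other strain lies on the WSB/EiJ side, with a dashed line at 50. WSB/EiJ stands alone at 32 tiles and C57BL/6J at 15, and CAST/EiJ and PWK/PhJ have the highest percentages.

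Some positions were listed in 1 strain only. All 3 C57BL/6J files and no WSB/EiJ file listed 141296 positions (5.49% of those in all 3 C57BL/6J files), and 139318 (5.17%) were listed the other way round. Within the 300-base promoter windows of GRCm38.p6, 29.7% of the positions listed in WSB/EiJ alone were not CpGs in the reference sequence, against 0.204% of those listed in C57BL/6J alone and 0.0273% of those in all 6. CAST/EiJ listed in all 3 files 41.4% of the WSB/EiJ positions and 33.4% of the C57BL/6J positions, while NZO/HlLtJ listed 29.9% and 55.7%. Tiles with such strain-only positions differed in 1.44% of cases and tiles without them in 0.389%, and 48.2% of the differing tiles held at least 1, beside 20.1% of tested tiles. The direction was similar in both sets, with 56.7% and 53.6% higher in WSB/EiJ. The 3 C57BL/6J files also name the mitochondrial genome M, and the files of the other 8 strains name it MT. The files of the strains may therefore rest on different reference sequences. Which reference each strain's reads were aligned to is not given in the sources used here, and its part in the tile differences was not tested.

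Along the chromosomes the differing share ranged from 0.110% on X, where all 3 differing tiles were higher in WSB/EiJ, to 0.910% on chromosome 4. Chromosome 11 was the most one-sided among those with 20 or more, with 28 of 36 higher in WSB/EiJ. In windows of 10 Mb with at least 100 tested tiles, 70 of 245 held no differing tile. The highest shares were 3.91% at 60 to 70 Mb of chromosome 13, where Gm7049 and a pair of lower tiles in the RNA gene Platr25 (91.6% to 37.8% and 80.7% to 33.1%) lie, and 3.85% at 20 to 30 Mb of chromosome 12. Across the 245 windows the differing share and the share of tiles with strain-only positions had a Spearman correlation of 0.245 and a Pearson correlation of 0.397, given as a description, since windows share libraries and neighbouring windows are not independent.

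In 321 of the 483 (66.5%) every position differed in the direction of its tile, and over all 483 the median tile held 8 positions spanning 221 bp. The same share was not computed over all tested tiles. Tiles chosen for a large difference of means agree in direction in part by that choice. Tested singly, 756 of 1074277 positions differed (0.0704%), 268 higher in WSB/EiJ and 488 higher in C57BL/6J, with a median difference of 91.7 points. Many of them read as fully unmethylated in every sample of 1 strain and over 80% in the other. More often WSB/EiJ was the unmethylated strain. Whether the DNA sequence of the strains differs at the 756 positions was not tested. The split and the median therefore describe the listed percentages. Of the 756, 307 (40.6%) lay in differing tiles, which hold 0.510% of tested positions. That overlap is in part built in, because tile levels are means of these same positions in the same samples. The split of single positions depended on the test and on the samples. With a trend in the variance prior and a robust fit, 2302 positions were called, 1086 higher in WSB/EiJ and 1216 higher in C57BL/6J. Without C57BL/6J replicate 1, 2 or 4 the fits called 327, 400 or 309 positions, of which 143, 199 or 138 were higher in WSB/EiJ. Without WSB/EiJ replicate 2, 3 or 4 they called 275, 266 or 273, of which 87, 90 or 93 were higher in WSB/EiJ.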

How the data were processed

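Files with the percent methylation of each listed position were deposited for all 27 samples. DNA was cut with MspI, ligated, bisulfite converted and amplified, per the labels' protocols. The submitters' processing notes name Trim Galore 0.6.3, Bowtie2, Bismark 0.22 and the builds GRCm38 and mm10. The files give no read counts, so a count test could not be used and depth is unknown. Listed positions in promoter windows were checked against GRCm38.p6 letters.

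Positions listed in all 6 files were averaged in 1 kb tiles. The value log2((percent + 5)/(100 − percent + 5)) was fitted with limma 3.58.1 in R 4.3.3 with no covariates, and p-values were adjusted by Benjamini-Hochberg over all tiles. Single positions were tested likewise. The script was tested on simulated data. The exact permutation tests were computed in Python 3.11.15, and scipy 1.17.1 gave the correlations across windows. P-values measure the spread between 3 labelled biological replicates a strain.

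A tile was assigned to a gene where it overlaps the RefSeq span extended by 1 kb. A strain counts as read in a tile where each of its 3 samples lists 5 or more of the tile's positions. Genes were named by rule from differing tiles without overlap between strains: the 12 largest differences in each direction over protein-coding genes, the 3 largest whatever they overlap, up to 4 per gene list from 20 lists, and the longest runs. Some genes that the rule names are not reported here. Start tiles were named after their values were seen. The comparison and the lists were chosen with earlier results of these data known. Alternatives tried were the offset, the scale, positions per tile, the filter on the mean, the minimum difference, strand averaging, the position set, the tile grid, the variance prior, the replicate block and leaving out each sample. Chosen after seeing the data were the tile median, sample weights, leaving out ribosomal DNA on chromosome 17, weighting tiles alike and leaving Epcam out of its marker list.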

Additional observations from a re-analysis of the deposited data

Results flagged for a closer look

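Positions outside the chromosomes that were compared also carried values, although every sample is labelled female. On the Y chromosome 832, 978 and 936 positions were listed in C57BL/6J replicates 1, 2 and 4, and 1315, 1271 and 1177 in WSB/EiJ replicates 2, 3 and 4, with no overlap between the strains (exact permutation test, two-sided, p = 0.1, the smallest that 3 against 3 allows). On the mitochondrial genome 79, 51 and 54 positions were listed in the C57BL/6J replicates and 50, 40 and 42 in the WSB/EiJ replicates.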

How the results depend on the processing

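The count of differing tiles (483) moved by over 1.5 times with an offset of 1 point (256), with at least 10 positions per tile (249), with a 50-point minimum (95) and with strands averaged first (318), and leaving out 1 sample gave 128 to 285. It was 334 to 695 under the other alternatives, and the share higher in WSB/EiJ (55.1%) never fell under 50%, the lowest being 50.5% with 3 positions per tile and with a 10-point minimum. The strains share the replicate numbers 2 and 4 only. Deviations of same-numbered samples from their strain means had correlations of 0.00316 and −0.00453. The labels do not say whether a number marks a shared day or batch, and so few pairs cannot settle it. With the replicate block, which leaves 4 samples and 1 residual degree of freedom, limma called 0 tiles (6892 at an unadjusted p under 0.05) and 0 positions (75275 unadjusted). Differing positions (756) numbered 147 with an offset of 1, 2302 with a trend and robust prior, 2334 with no filter on the mean and 266 to 400 without 1 sample. Switches between low and high (21) numbered 4 with limits of 10% and 90% and 72 with 30% and 70%. Asking that all 7 other strains lie within 25 points of one strain and not of the other left 16 tiles with WSB/EiJ alone and 9 with C57BL/6J alone. The difference in the intermediate share on X (−0.291 points, WSB/EiJ minus C57BL/6J) turned to 0.137 without C57BL/6J replicate 2, over a range of −0.704 to 0.137. The cause of these changes was not tested. Of the 87 tiles named by rule or at gene starts, none changed direction under the settings that tested them, which leave out the shifted grid. In these fits 40 kept their call without each sample in turn, 28 lost it for some samples and 19 for all 6. Under settings other than these and the replicate block, the call was lost in 130 of 1098 values. Depth is unknown, so its effect on the calls could not be measured.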
